A study of Caenorhabditis elegans with 4 samples.

Results

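The sites described here are chromatin immunoprecipitation (ChIP) peaks of AMA-1, the largest polypeptide of RNA polymerase II in the nematode Caenorhabditis elegans. Each is a replicate 1 peak with a lone short series-wide peak, shared with a replicate 2 peak that was not always short or lone. A site is a replicate 1 peak that overlapped, by at least 1 bp, exactly 1 replicate 2 peak and exactly 1 peak of a list made for the whole series, where that series-wide peak was under 3000 bp wide. The members were thus selected on measured peak positions and widths of the same libraries. There were 320 such sites among the 2838 peaks of replicate 1. They made up 15.7% (95% Wilson interval 14.2 to 17.4%) of the 2037 replicate 1 peaks shared with replicate 2, and the other 1717 shared peaks are the background they are set against. The study used ChIP-seq on mixed-stage embryos of strain N2, labelled wild type and a mixed population of males and hermaphrodites. It comprised 2 AMA-1 ChIP libraries and 2 input DNA libraries, and only the ChIP libraries have peak lists of their own among the files used here. The listed temperature was 20 degrees Celsius. All libraries share a growth protocol named for RNAi and the tag RiIMB1 in their titles, whose target the labels do not name, so these are not values of untreated wild type.

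RNA polymerase II transcribes all protein-coding genes. It gathers at promoters, where transcription starts, then moves through the gene body and past the polyadenylation site before it is released. In C. elegans genes lie close together and some are transcribed as operons, so polymerase signal from neighbouring genes can merge into wide domains, while a short separate peak covers a stretch no longer than a compact gene or a promoter. The AMA-1 antibody is polyclonal and was raised in rabbits against a stretch of the protein. An embryo extract averages over cell types and stages, so a peak does not say in how many cells the polymerase was present. Coordinates are those of WormBase WS220. No annotation or genome of that build was used here, so sites are given by position, with neither gene names nor sequence.

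The rule let through a narrow class of the shared peaks. Of the 2037 shared peaks, 248 (12.2%) had more than 1 replicate 2 partner and 1789 had exactly 1. Among those with 1 partner, 451 held exactly 2 series-wide peaks, 332 held 3, and 600 held 4 or more. Exactly 1 series-wide peak was found in 406, of which 86 were left out because that peak was 3000 bp or wider. The members just inside the limit had series-wide peaks of 2991 bp (chromosome I, replicate 1 peak from 7132682 to 7136112), 2978 bp (III, from 4192888 to 4196344) and 2963 bp (I, from 460612 to 464989). The nearest peaks outside it had 3092 bp (II, from 7615359 to 7618990), 3092 bp (X, from 13298791 to 13302601) and 3094 bp (II, from 11373416 to 11377320). The sites on the inner side had replicate 1 scores of 1077, 695 and 652, and those on the outer side 1094, 2452 and 3100. The scores are the authors' own, carry no unit in the files and are comparable only within a list. Values at or above 3100 in the replicate lists were treated as tied, a ceiling that many peaks share.

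By selection, the sites were narrow. Their replicate 1 peaks had a median width of 1799.5 bp (quartiles 1394 and 2409, range 1066 to 4761), against 4818 bp (quartiles 2786 and 8164) in the other shared peaks. The replicate 2 partners had a median of 2126 bp (quartiles 1570 and 3061), against 4436 bp for the best-scoring partner of the other shared peaks. The series-wide peak within a site had a median width of 1175.5 bp (quartiles 809 and 1680.5), which is longer than the 345 bp of the series-wide list as a whole. The best-scoring series-wide peak of the other shared peaks, to which no width limit applied, had a median of 1596.5 bp. Sites made up 45.4% of the 414 shared peaks under 2000 bp and 26.9% of the 349 from 2000 to under 3000 bp. Of the 442 from 3000 to under 5000 bp they made up 8.6%, and of the 832 at 5000 bp or more there were none. Narrow width alone therefore did not make a shared peak a site.

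**Figure D1:**
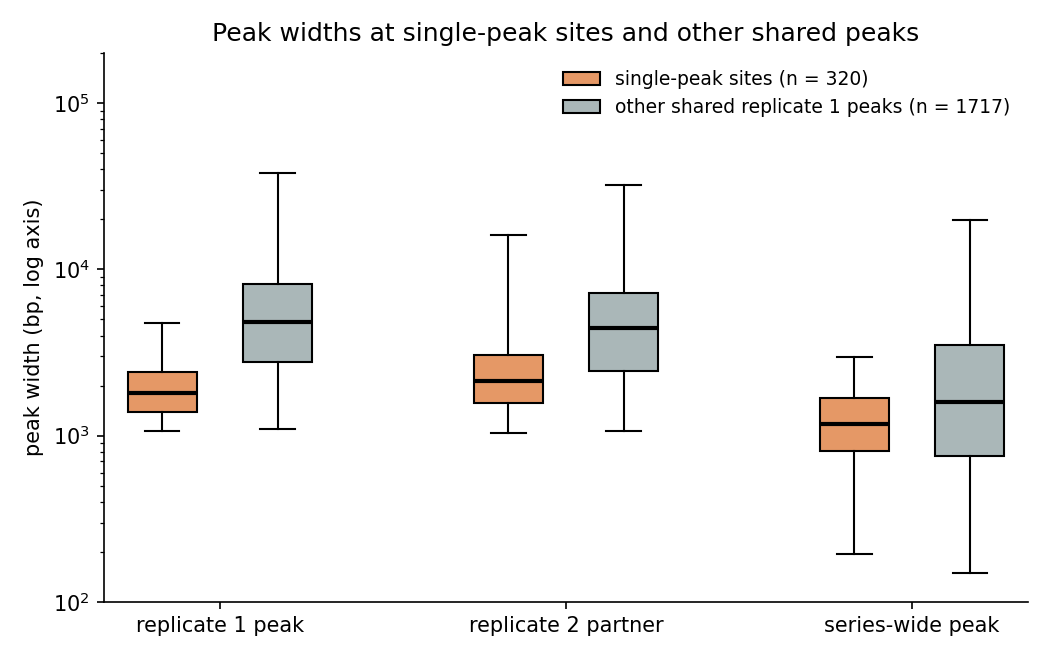
Peak widths in bp (log axis) for the 320 single-peak sites and the 1717 other shared replicate 1 peaks, for the replicate 1 peak, its best-scoring replicate 2 partner and the best-scoring series-wide peak within it (present in 1716 of the other peaks). Lines are medians, boxes quartiles and whiskers the full range. The sites have the lower median in each list, as the rule requires in part, at 1799.5, 2126 and 1175.5 bp. For the series-wide peak the lower quartile is higher at the sites, at 809 bp against 752 bp.

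The centre of the series-wide peak lay within 100 bp of the replicate 1 centre at 199 sites (62.2%). For the replicate 2 centre this held at 174 sites (54.4%). Since the peaks are narrow and overlap by the rule, the offset from the replicate 1 centre is partly bounded by the selection. The centres of the replicate peaks lay a median of 129 bp apart (quartiles 47.9 and 488.5), within 100 bp at 144 sites and more than 1000 bp apart at 43 (13.4%). The centre of the series-wide peak lay a median of 70.25 bp (quartiles 33.75 and 146) from the centre of the replicate 1 peak and 86.25 bp (quartiles 38.4 and 360) from that of the replicate 2 peak. Both distances were 100 bp or less at 127 of the 320 sites (39.7%). The series-wide peak lay wholly inside the replicate 1 peak at 290 sites, inside the replicate 2 peak at 297 and inside both at 268. The replicate peaks reached past it on both sides by similar lengths. The median margin was 290 bp on the left and 329.5 bp on the right in replicate 1, and 369 bp and 382.5 bp in replicate 2. The series-wide peak filled a median of 65.5% of the replicate 1 peak (quartiles 52.5 and 76.7%). The narrowest site shows the arrangement at its smallest. On chromosome I the replicate 1 peak from 13540735 to 13541800 (1066 bp) and the replicate 2 peak from 13540722 to 13541768 (1047 bp) enclosed a series-wide peak of 456 bp from 13540973 to 13541428. The next narrowest, of 1091 bp on I from 1041044 and of 1104 bp on V from 20841509, held series-wide peaks of 620 and 648 bp, each within 50 bp of the replicate 1 centre.

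**Figure D2:**
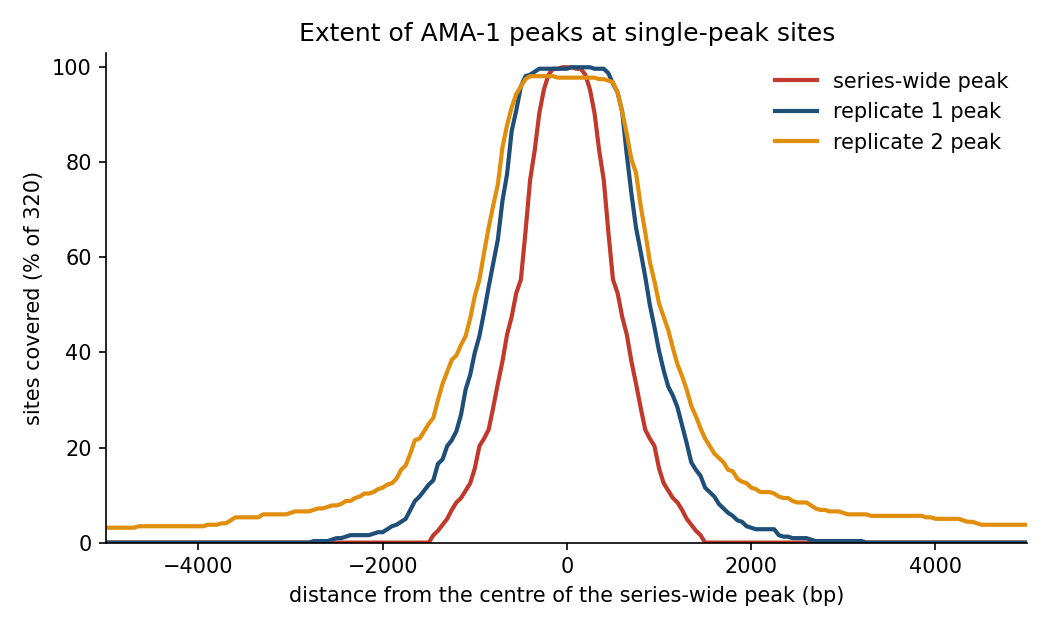
Percent of the 320 sites covered by the series-wide, replicate 1 and replicate 2 peak at each distance in bp from the centre of the series-wide peak, counted along the chromosome without regard to strand. At 800 bp to the left and to the right, the series-wide peak still covers 28.4% of the sites, replicate 1 covers 58.8% and 61.3%, and replicate 2 covers 70.9% on each side, with a long tail beyond 2000 bp in replicate 2.

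A lone peak in replicate 1 was not always a lone peak in replicate 2, since the rule sets no limit on what else the replicate 2 partner holds. At 226 of the 320 sites (70.6%, interval 65.4 to 75.3%) the partner overlapped no other replicate 1 peak and held the same series-wide peak and no other. These are called single in both replicates below. At the remaining 94 sites (29.4%) the partner held further series-wide peaks, joined several replicate 1 peaks, or missed the series-wide peak. Partners held 2 series-wide peaks at 47 sites and 3 or more at 43. At sites single in both, the replicate peaks had median widths of 1897.5 and 1857.5 bp and shared a median of 0.878 of their union. At the 94 others the widths were 1589.5 and 3356 bp and the shared part was 0.401 of the union. The replicate centres were a median of 73 bp apart at sites single in both and 821 bp apart at the 94 others. These differences follow in part from the split itself, which was made by what the replicate 2 partner held or joined. Replicate 2 was more than 2 times wider at 46 of all sites, none of them single in both, while replicate 1 was more than 2 times wider at 2. The rule limits the series-wide peaks of the replicate 1 peak alone, so the replicates do not enter it alike. Over the whole lists the order was opposite, with a median width of 3110 bp in replicate 1 and 2751 bp in replicate 2.

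The extremes of width show these cases. The replicate 2 peak on chromosome V from 20394566 to 20405127, 10562 bp wide, overlapped 3 replicate 1 peaks and 8 series-wide peaks. Among them were sites of 1354 bp (from 20394853) and 1141 bp (from 20397756), for which replicate 2 was 7.8 and 9.26 times wider. On III the site from 6591184 to 6592711 (1528 bp) lay in a replicate 2 peak of 11625 bp that held 11 series-wide peaks. In all, 13 sites shared their partner with another site, in 6 partners, so those sites are not separate in replicate 2. The partner on chromosome I from 456362 to 464031 covered 3 sites, whose replicate 1 scores were 75.6, 56.1 and 652, and scored 2117 itself. The widest site was the opposite case. On II the replicate 1 peak from 4998077 to 5002837 spanned 4761 bp and the replicate 2 peak 1926 bp, around a series-wide peak of 1217 bp. The next widest were 4614 bp on II from 7809128 and 4378 bp on I from 460612, with replicate 2 peaks of 4184 and 7670 bp.

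At 6 sites the replicate 2 partner did not reach the series-wide peak, although it overlapped the replicate 1 peak around it. Of these 6, 2 were among the 3 sites of lowest mean rank over the lists. On chromosome I the replicate 1 peak from 10625081 to 10627642 scored 61.7 and its partner, from 10624525 to 10625974, scored 50.4, close to the lowest score of either list (50.07). Its series-wide peak, from 10626906 to 10627100, was the shortest of any site at 195 bp and scored 2.34. On III the site from 2778131 to 2779662 scored 100.1 in replicate 1 and 88.8 in replicate 2, with a series-wide peak of 638 bp that scored 2.39. The other site of lowest rank, on I from 5422262 to 5423750, was single in both replicates, with scores of 62.2 and 51.4 and a series-wide peak of 893 bp that scored 4.96.

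Scores of the sites ran from near the floor to the ceiling of both replicate lists, and from 2.34 to 152.4 in the series-wide list, which itself runs from 1.3 to 199.43. The replicate 1 score had a median of 189 (quartiles 87.8 and 440), against 601 (quartiles 196 and 1746) for the other shared peaks, and the replicate 2 score a median of 231 (quartiles 117 and 440), against 487. Sites were 33.3% of the 303 shared peaks in the lowest 25% of replicate 1 scores, then 23.2% of 453 and 14.3% of 595 in the next bands of 25%, and 4.23% of 686 in the highest. At the ceiling were 7 sites in replicate 1 (2.19%), 6 in replicate 2 (1.88%) and 3 in both. By comparison, 13.8% of all shared peaks reached it in replicate 1, and 6.86% of all replicate 2 peaks in replicate 2. In the series-wide list the sites had a median score of 15.7, at a median percentile of 86.8 of that list, and 307 of 320 lay above its median. The best-scoring series-wide peak of the other shared peaks ranked higher still, with a median score of 20.6 at a median percentile of 90.9. Scores come from the same peak calls as the rule, so these differences from the other shared peaks are descriptions and were not tested.

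The replicates ranked the sites alike only in part. Spearman's rho between replicate 1 and replicate 2 scores was 0.51 over the 320 sites, 0.74 over the 226 single in both and 0.36 over the 94 others. For widths it was 0.45, 0.82 and 0.15. Over the 1469 other shared peaks with 1 partner it was 0.69 for scores and 0.69 for widths. No width limit applied to those peaks. The 226 sites exclude, by how they were defined, most partners much wider than the replicate 1 peak. These are descriptions across sites of the same 2 libraries, with neither p nor independence between sites. Score and width went together within each replicate, with a rho of 0.73 in replicate 1 and 0.78 in replicate 2. This was not particular to the sites, since the replicate 1 value over the 1469 other peaks was 0.78. Both scores lay under the median of their list at 132 sites and above it at 91. Replicate 2 alone was above its median at 74 sites, and replicate 1 alone at 23. At the 94 sites not single in replicate 2 the median score was 104 in replicate 1 and 341 in replicate 2, at median percentiles 24.0 and 60.3 of their lists, and replicate 2 gave the higher rank at 84 of them. At the 226 single in both it gave the higher rank at 110. The 94 sites were set apart by what their replicate 2 partner held, and these partners were wider. Since score and width went together, the replicate 2 ranks of the 94 are not independent of that selection.

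**Figure D3:**
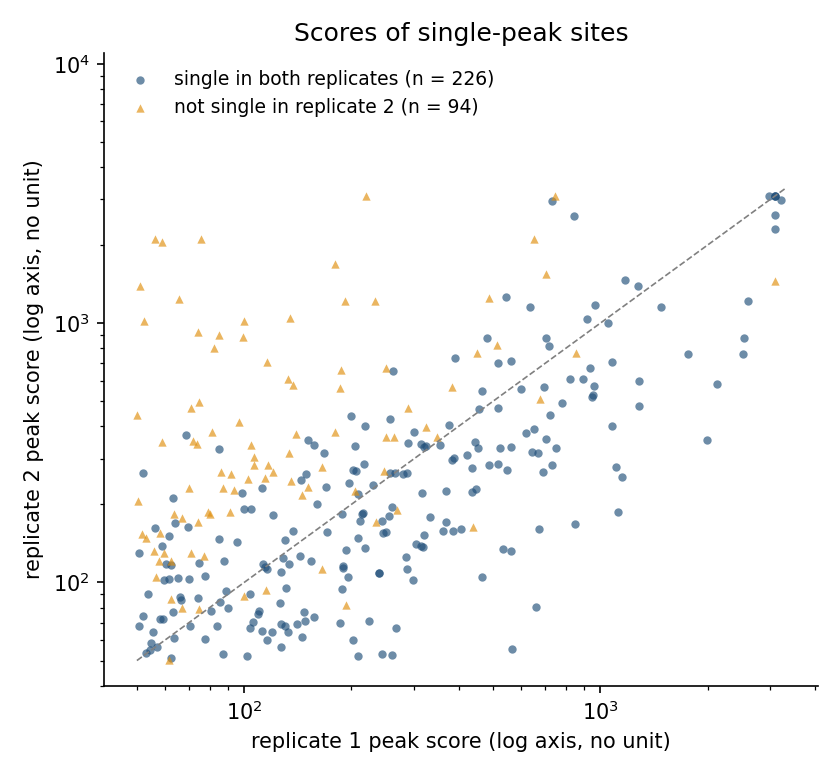
Replicate 2 score against replicate 1 score (log axes, no unit) for the 226 sites single in both replicates (circles) and the 94 not single in replicate 2 (triangles). The dashed line marks equal scores and is a visual guide only, since scores are comparable only within a list. Triangles lie mostly above the line, with medians of 104 in replicate 1 and 341 in replicate 2. These are median percentiles 24.0 and 60.3 of their lists. Circles lie on both sides of the line.

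Sites with a longer series-wide peak had higher replicate scores. It was under 1000 bp at 142 sites, from 1000 to under 2000 bp at 128 and from 2000 to under 3000 bp at 50. The median replicate 1 score was 100.02 in the first class, 243 in the second and 762 in the third, and the median replicate 2 score was 128, 287 and 641. The median series-wide score was 13.6, 15.4 and 26.5. The correlation of replicate scores within these classes was 0.17, 0.38 and 0.48, in each below the 0.51 over all sites. The classes were cut by a width that goes with score, so these values are not directly comparable with that over all sites. The share of sites single in both was 69.0%, 68.8% and 80.0%, with overlapping intervals (61.0 to 76.0%, 60.3 to 76.1% and 67.0 to 88.8%).

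The 10 sites with the best mean rank of score over the 3 lists had replicate 1 peaks of 2276 to 3574 bp, most of them in the upper part of the widths of the sites. The first, on the X chromosome, had a replicate 1 peak from 14489399 to 14491998 and a replicate 2 peak from 14489367 to 14492176, each with a score of 3100. Its series-wide peak, from 14489737 to 14491715, scored 152.4, the highest of any site. On IV the site from 6293791 to 6296278 reached 3100 in both replicates, with a series-wide peak of 2012 bp that scored 112. It was also set apart, with 21.9 kb to the next replicate 1 peak and 21.2 kb to the next series-wide peak. A second X site, from 8158660 to 8160935, reached 3100 in both as well, and the centre of its series-wide peak (1781 bp, score 111) lay 4.5 bp from that of the replicate 1 peak. These were the 3 sites at the ceiling in both replicates.

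The next sites reached the ceiling in at most 1 replicate. On II the site from 13946660 to 13949768 scored 3216 and 2980 in replicates 1 and 2, with replicate widths of 3109 and 3168 bp. On chromosome I the site from 14432279 to 14435008 scored 3100 and 2602, and the site from 9497137 to 9500701 scored 3100 and 2303. On V the best site, from 6097791 to 6101045, scored 2979 and 3100. Replicate widths of these 4 sites differed by at most 1.16 times. By percentile within a list, the last 3 of the 10 were not all further apart between replicates than these 4. The II site from 14497853 lay at percentile 88.5 in replicate 1 and 83.7 in replicate 2. The V site lay at 89.6 and 96.6. Of the 10 sites, the widest gap was at the chromosome I site from 8133393, at 70.5 and 96.6. The II sites from 5692622 to 5696195 and from 14497853 to 14501304 scored 3100 and 1454, and 2591 and 1214. The chromosome I site from 8133393 to 8136383 went the other way, with 746 in replicate 1 and 3100 in replicate 2, where its peak was 1.36 times wider and held a second series-wide peak. Of the 10 sites, 8 were single in both replicates. No site of III was among them, and the best there, from 6279984 to 6283313, scored 1484 and 1156 with a series-wide score of 34.2.

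Single-peak sites were found on every chromosome. Chromosome I held 72, V 58, II 54, IV 53, III 51 and X 32. As a share of the shared peaks of the chromosome they were 18.0% on V, 17.5% on I, 15.9% on II, 14.6% on IV, 14.4% on X and 13.5% on III. The intervals of all 6 include the overall 15.7%. Between X and the autosome mean of 15.9% ± 1.91 (SD, n = 5 chromosomes) the difference was -1.48 percentage points, smaller than that spread (exact permutation over 6 chromosomes, two-sided, p = 0.667, adjusted over 2 tests 0.688). The smallest p that 6 chromosomes allow for this comparison is 0.167. The difference turned to 5.08 without replicate 1, where all replicate 2 peaks are the base, and to 4.32 for the better-scoring 50% of each replicate list. With series-wide peaks under 1000 bp it was -4.31.

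Along the chromosomes, the share of sites was compared between ends and middle. With each chromosome divided into 3 equal lengths, 236 of 1491 shared peaks in the outer parts were sites (15.8%), and 84 of 546 in the middle parts (15.4%). The mean difference, outer minus middle, was 1.26 ± 4.82 percentage points (SD, n = 6 chromosomes), above 0 on 3 chromosomes and below on 3 (exact sign-flip permutation, two-sided, p = 0.688, adjusted 0.688). It was thus smaller than the spread between chromosomes, and it turned to -0.732 without replicate 1. The widest gap was on X, where 28 of 166 outer peaks (16.9%) and 4 of 56 middle peaks (7.14%) were sites. On chromosome I the order was opposite, with 16.3% and 20.7%.

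**Figure D4:**
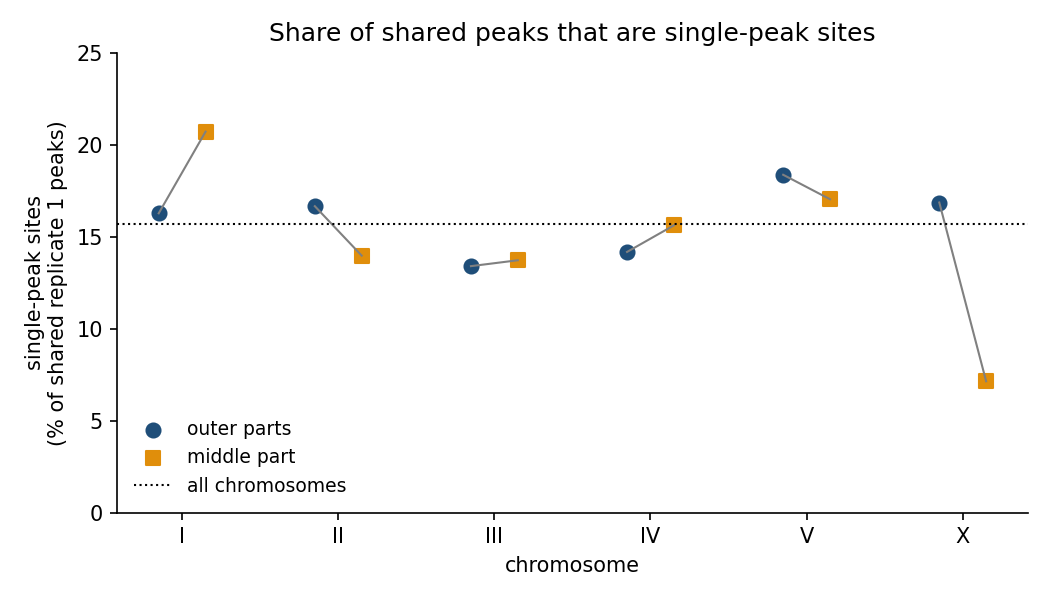
Percent of shared replicate 1 peaks that are single-peak sites in the outer parts (circles) and the middle part (squares) of each chromosome, with the value over all chromosomes as a dotted line. The outer value is higher on II, V and X and lower on I, III and IV.

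Among the chromosomes, X had the sites of highest median width and score. Their series-wide peaks had a median width of 1709 bp (n = 32), against 1086 bp on the autosomes (n = 288), where the chromosome medians ran from 1019 bp on II to 1122 bp on V. The median replicate 1 score was 458 on X, against 186 on the autosomes, with III the lowest at 121. The median replicate 2 score was 397, against 218. X was the highest of the 6 chromosomes in all 3 of these medians. Series-wide peaks under 1000 bp occurred at 7 of 32 sites on X (21.9%, interval 11.02 to 38.8%), against 45.3 to 50.0% on the single autosomes. Only part of this pattern was seen in the other shared peaks. There the best-scoring series-wide peak had a median width of 1797 bp on X, again the highest of the 6 chromosomes. It was 1744 bp on V and 1586.5 bp on the autosomes together. Their median replicate 1 width was 4439.5 bp on X, the lowest of the 6 chromosomes, against 4862 bp on the autosomes. Their median replicate 1 score was 655 on X, against 591 on the autosomes together, but 697 on V. No test was made of these differences, for which 6 chromosomes allow no p below 0.167 and for which width is part of the rule.

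**Figure D5:**
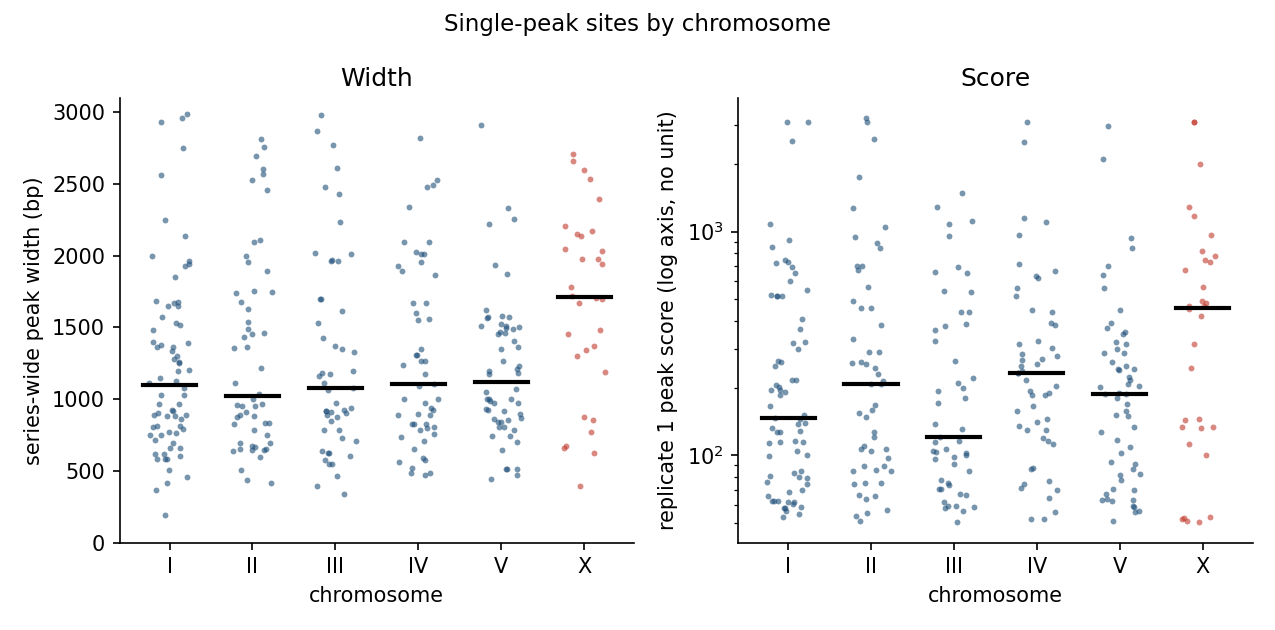
Width of the series-wide peak in bp (left) and replicate 1 score (right, log axis, no unit) of each single-peak site, by chromosome, with X in red. Bars are medians. X has the highest median in both panels, 1709 bp and 458, with 32 sites.

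A lone short peak did not mean an isolated place. Another replicate 1 peak lay within 1 kb of 111 sites (34.7%, interval 29.7 to 40.1%), against 38.8% (interval 36.6 to 41.2%) of the other shared peaks. The median gap to the next replicate 1 peak was 2253 bp, against 2075 bp. Another series-wide peak lay within 1 kb of the replicate 1 peak at 176 sites (55.0%), against 61.7% of the others. Further than 10 kb from any other series-wide peak were 37 sites (11.6%), against 9.84%. Both classes had a median of 2 shared peaks within 50 kb on each side, and 42 sites (13.1%) and 193 other shared peaks (11.2%) had none. The next shared peak along the chromosome was also a site for 53 of 319 sites (16.6%, interval 12.9 to 21.1%), beside 15.7% overall. The median gap between neighbouring sites was 189 kb. These counts are descriptions, since the spacing of peaks enters the rule through the number of overlaps.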

How the data were processed

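Libraries were grouped by their titles into 2 AMA-1 ChIP and 2 input DNA libraries. The ChIP used 2 mg of extract with 1% sarkosyl and 10% was kept as input, per the labels' protocols. The deposited peak lists give start, end and a score for each peak, in WormBase WS220 coordinates counted from 1, per the file headers. Each replicate list names MACS without a version and the series-wide list names MACS v2. BWA and ce10 are named in the submitters' processing notes. Calling settings, the role of input and the pooling behind the series-wide list have no source among the labels and headers used here. If that list was called on the reads of both replicates, its overlap with each is partly built in. Whether replicates were separate cultures is not stated. Read depth is unknown.

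Overlap was at least 1 bp, and score ranks were percentiles within a list. The 95% Wilson intervals reflect counting error alone, as if neighbouring peaks were independent. The rule uses measured peaks, so widths, scores and spacing carry no test. Only position was tested, by exact permutations over 6 chromosomes. The end of the last listed peak stood for the length of a chromosome. The members, the rules and the tests were chosen with earlier results of these data known. Named regions were the 10 sites of best and 3 of worst mean rank of score over the 3 lists, the best of each chromosome, the 3 narrowest and 3 widest in replicate 1, the 3 largest width ratios, and the 3 on each side of the width limit. Other regions were named after their values were seen. The rule and tests were checked on simulated lists. Python 3.11.15, numpy 2.4.6, scipy 1.17.1, pandas 2.3.3 and matplotlib 3.10.9 were used.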

Additional observations from a re-analysis of the deposited data

How the results depend on the processing

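The number of sites was 261 with reciprocal overlap of 50%, 375 with replicate 2 as the starting list and 406 with no width limit. It moved to 142 with series-wide peaks under 1000 bp, 91 for the better-scoring 50% of each replicate list, 592 for the better-scoring 50% of the series-wide list, and 576 to 618 with 1 replicate. As a share of shared peaks these were 6.97%, 8.77% and 29.1%, then 20.3 to 21.7% of all peaks with 1 replicate, and 19.9% with no width limit. The correlation of replicate scores moved to 0.69 with reciprocal overlap, 0.17 under 1000 bp, 0.72 with no width limit, 0.40 for the better-scoring 50% of the series-wide list and 0.41 from replicate 2. The offset from the centre of the starting replicate peak moved to 125 bp for the better-scoring 50% of the series-wide list and stayed between 60 and 79.75 bp in the other 8 alternatives. The X difference was -4.31 percentage points with series-wide peaks under 1000 bp. It turned to 1.80 with no width limit, 0.220 for the better-scoring 50% of the series-wide list, 4.32 for that of each replicate list and 0.144 from replicate 2. With 1 replicate it ran from -0.929 to 5.08 percentage points. The difference between outer and middle parts turned to -0.538 with no width limit, -0.935 for the better-scoring 50% of the series-wide list and -0.128 for a middle part of 50% against outer parts of 25% each, and ran from -0.732 to 2.76 with 1 replicate. Neither difference had a p under 0.05 in any of these alternatives, which for X is out of reach with 6 chromosomes. Restricting to sites single in both replicates, chosen after seeing the data, gave 226 sites (11.1% of shared peaks), a correlation of 0.74 and an outer difference of -0.461. The cause of these moves was not tested. No paired analysis was possible because every result here comes from peak lists, which are at hand for the ChIP libraries alone, so no value of an input pairs with them. Depth is unknown, so absence of a peak from a list does not show absence of the polymerase.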
